A study of Mus musculus with 10 samples.

Results

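A pair of comparisons, each of libraries labelled with tamoxifen (TAM) against a reference, was set side by side in material labelled as mouse intestinal organoid. The aim was to describe which genes changed in the same way in both, which changed in 1 comparison and which changed in opposite ways. The S pair set TAM short (titles DSS_S, labelled "Dosage-sensitive TAM (short)") against control (titles NS, saline). The L pair set TAM long (titles DSS_L, labelled "Dosage-sensitive TAM (Long)") against DMBA (titles NL, label "DMBA (Long)"), so its reference carried DMBA, a polycyclic aromatic hydrocarbon that is carcinogenic, and not saline. These 4 groups of 2 libraries are 8 of the 10 libraries of the series, and 15396 of the 47069 genes listed passed the filter on low counts and were tested. All 8 are described as C57BL/6 organoids cultured for 50 days in Matrigel with Noggin, EGF and R-spondin 1. By the study's methods the organoids carried Lgr5-EGFP-CreERT2 with floxed Ppp2r1a, in which tamoxifen releases Cre only in cells that use the Lgr5 promoter, the crypt stem cells. The sources used here do not explain the words short and long. The S and L in the titles could also be read as small and large intestine and DSS as dextran sulfate sodium, which the labels do not state. The pairs share no library. Nothing says that the 2 libraries of a group came from separate mice or cultures, so p-values measure the spread between these libraries, which may be technical.

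Interferon-induced, clock and cholesterol genes have well-known roles. Type I and III interferons act through STAT and IRF factors to induce antiviral genes such as the Oas family, Isg15 and Usp18, and intestinal epithelium keeps a low level of this program without infection. The circadian clock is a feedback loop in which CLOCK and ARNTL drive the Per, Cry and Nr1d genes, whose products repress them in turn, and output factors such as DBP pass the rhythm on. Cholesterol synthesis is driven by SREBP2, which acts when sterols in the endoplasmic reticulum are low.

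Levels are given as normalised CPM (counts over TMM-scaled library totals), in the order of library 1 and library 2 of a group. Totals ran from 8828247 to 10923673 counts, and 3 counts stood for 0.246 to 0.363 CPM. Ppp2r1a, the floxed gene, had 118 and 125 CPM in control, 126 and 141 in TAM short, 160 and 145 in DMBA and 160 and 150 in TAM long; its log2 fold change was 0.14 in the S pair (adjusted p = 0.432 by edgeR's quasi-likelihood test) and 0.02 in the L pair (adjusted p = 0.933). Counts are sums over a gene and do not check the deletion of its floxed exons. Lgr5 was at 2.29 to 7.50 CPM in the 8 libraries and passed the test in neither pair. The 12 markers of epithelium summed to 16422 to 26083 CPM. The label is intestinal organoid, a culture of epithelium, yet genes of other cells were present. Those of B cells and plasma cells summed to 2955 to 8179 CPM and those of enteric neurons and glia to 41.7 to 162. The source of this RNA was not tested. Other markers set the libraries apart along the S and L of the titles: 10 genes of the small intestine summed to 17820 to 29947 CPM in the S libraries and 279 to 807 in the L libraries, 10 genes of the colon to 9.87 to 20.6 and 2243 to 14235, 12 genes of smooth muscle to 1857 to 3487 and 8634 to 15497, and 14 genes of T cells to 213 to 493 and 34.9 to 58.2. DMBA library 2 stood apart within its group, since 14 genes of pancreatic acinar cells summed to 6316 CPM there and to 32.1 to 104 in the other 7 libraries, and the DMBA libraries differed by more than 2-fold at 9.87% of genes, against 5.11% to 5.96% in the other groups.

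In the S pair 2446 genes passed an adjusted p of 0.05, which is 15.9% of the genes tested, with 1108 higher in TAM short (7.20%) and 1338 lower (8.69%). In the L pair 456 genes passed (2.96%), with 205 higher in TAM long (1.33%) and 251 lower (1.63%). Counts of called genes in the lists below are to be read beside these shares. The median standard error of a log2 fold change was 0.20 in each pair. The 4 groups shared 1 estimate of the spread of each gene, so these equal errors do not show equal precision. The DMBA libraries differed most (by more than 2-fold at 9.87% of genes), and their spread enters the errors and p-values of both pairs. A gene was called in both pairs 217 times, which is 8.87% of the calls of the S pair and 47.6% of those of the L pair, and 187 of these 217 had the same sign. The difference between the pairs was tested itself, as an interaction (change in the L pair minus change in the S pair). It passed for 1023 genes (6.64%), 532 with a higher value (3.46%) and 491 with a lower one (3.19%). Across all genes tested, the log2 fold changes of the pairs correlated with r = 0.19, as a description over 15396 genes that share libraries and are not independent.

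From these calls, 187 genes were same-way (1.21%; 91 rises, 0.591%, and 96 falls, 0.624%) and 30 were opposite-way, called in both pairs with opposite signs and a called interaction (0.195%). A further 772 were S-only, called in the S pair and in the interaction but not in the L pair (5.01%; 356 rises, 2.31%, and 416 falls, 2.70%), and 76 were L-only (0.494%; 35 rises, 0.227%, and 41 falls, 0.266%). In 1457 genes called in the S pair and 163 called in the L pair, neither the other pair nor the interaction passed, so the data do not tell whether the other pair changed. An S-only gene is therefore one whose change differed between the pairs, not one shown to be without change in the L pair, and 581 of the 772 had a log2 fold change between -0.5 and 0.5 there. The counts rest on few libraries. Same-way genes numbered 38 to 62 without either library of control, TAM short or TAM long and 353 and 288 without DMBA library 1 and 2, and opposite-way genes fell to 0 without TAM short library 2. Scaling by library size alone turned the split of calls in the S pair to 1325 higher and 945 lower and that of the interaction to 358 higher and 524 lower.

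**Figure D1:**
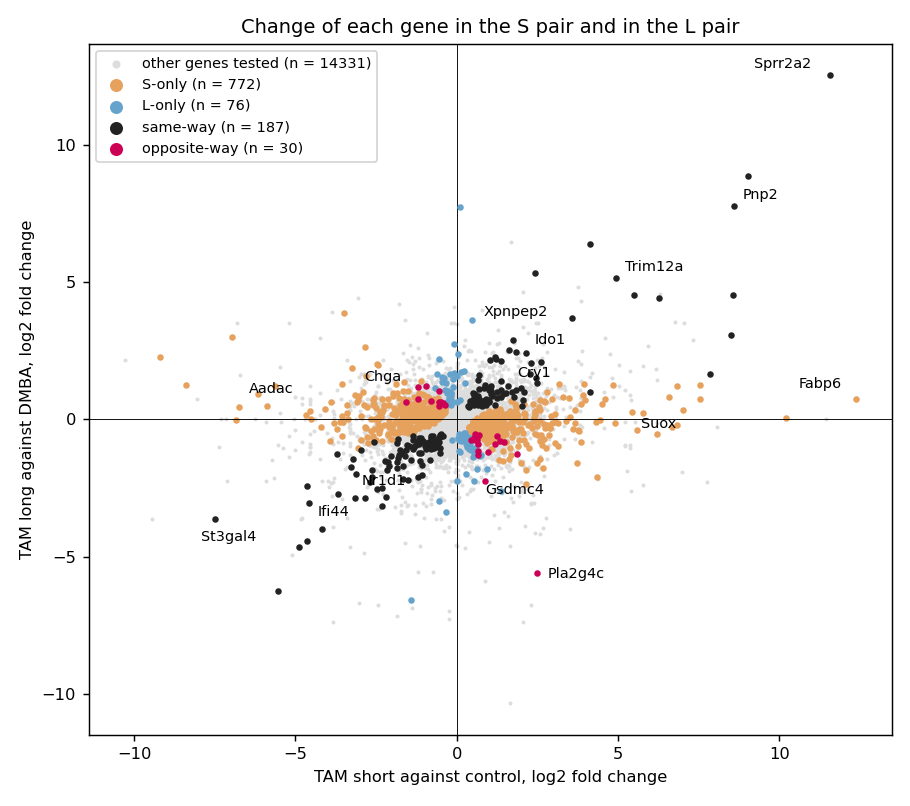
Log2 fold change of each of the 15396 genes tested in TAM short against control (x axis) and in TAM long against DMBA (y axis), with 1 point per gene coloured by class. The 187 same-way genes lie in the lower left and upper right and the 30 opposite-way genes in the other corners. Of the 772 S-only genes, 581 lie within 0.5 of the horizontal axis. Folds of genes at 0 counts in a reference group, such as Sprr2a2, depend on the prior count.

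Transporters and metabolic enzymes were among the same-way rises named. The 10 named here have the largest smaller change of the 2 pairs among the 72 that met the rule for naming. Ido1 (ENSMUSG00000031551, chromosome 8 of GRCm38, 24584136 to 24597009), which starts the breakdown of tryptophan to kynurenine, had 47.3 and 49.6 CPM in control, 214 and 216 in TAM short, 13.7 and 10.9 in DMBA and 76.6 and 54.5 in TAM long. Both TAM groups lay above their references with no overlap, and the log2 fold changes were 2.15 ± 0.17 (standard error, adjusted p = 0.000225) and 2.41 ± 0.18 (adjusted p = 0.00102). Slc34a2, a sodium-dependent phosphate transporter, rose from 151 and 113 CPM to 798 and 838 in the S pair and from 16.9 and 17.2 to 76.3 and 68.0 in the L pair. Its levels were several fold lower in the L libraries, while its changes were alike in size at 2.63 and 2.08 (interaction -0.55, adjusted p = 0.169). Slc15a2, the peptide transporter PEPT2, rose by a log2 fold change of 6.28 in the S pair, from 0.326 and 0.232 to 22.1 and 23.6 CPM, and of 4.43 in the L pair, from 2.31 and 2.46 to 57.9 and 44.8; the interaction of -1.86 passed the test (adjusted p = 0.04; 0.11 by DESeq2 and 0.0561 with a replicate block). Tat, which removes the amino group of tyrosine, was at 0.217 and 0.116 CPM in control (3 counts in all) and 35.8 and 48.5 in TAM short, a ratio of 248 (95% counting interval 84.6 to 1206), and rose in the L pair from 13.7 and 13.9 to 49.2 and 37.1 (log2 fold change 1.65, adjusted p = 0.00722). Hsd3b3, an enzyme of steroid hormone synthesis, was at 0 counts in both control libraries and at 3.83 and 5.32 CPM in TAM short, at least 26.9-fold higher against a floor of 3 counts over the group, and its log2 fold change in the L pair was 3.09. The conjugating enzymes Sult1c2 and Gstp2 had log2 fold changes of 2.27 and 1.62 in the S pair and 1.64 and 2.53 in the L pair. Gstp2 has a near-identical neighbour, Gstp1, which passed the test in neither pair, so its count is uncertain. Of the 10, Sprr2a2, Pnp2, Trim12a, Slc15a2, Ido1 and Slc34a2 kept both calls whichever library was left out. Tat lost a call without TAM long library 1. Sult1c2 lost one without either control library, TAM short library 2 or TAM long library 1, and Hsd3b3 and Gstp2 lost one without those or TAM short library 1.

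Some same-way genes went from near 0 to a clear level, or the reverse, in both pairs. By a rule chosen after the values were seen (a mean under 1 CPM in both references and over 1 in both TAM groups, or the reverse), 9 genes did the first and 4 the second. Trim12a, a member of the TRIM family of ubiquitin ligases, had 0.543 and 1.05 CPM in control, 27.2 and 21.7 in TAM short, 0.769 and 0.427 in DMBA and 22.3 and 22.1 in TAM long. It lies at 104299894 to 104315466 of chromosome 7. Its neighbour Trim5, on the same strand at 104263386 to 104288094, was at 0 counts in all 4 reference libraries, so that TAM short was at least 39.6-fold higher and TAM long at least 41.1-fold higher. Trim12c, a paralog in the same stretch, was at 60.6 to 87.8 CPM in the 8 libraries and passed the test in neither pair. Hbb-bt, at 103812524 to 103813996 of the same chromosome, was at 0 to 0.543 CPM in the reference libraries and 1.86 to 4.59 in the TAM libraries. The strain is known from the sample descriptions only, and a difference in genetic background between the groups was not tested. Pnp2, a purine nucleoside phosphorylase, had 0.217 and 0.465 CPM in control against 144 and 127 in TAM short, and 0 and 0.107 in DMBA against 11.7 and 14.5 in TAM long. Sprr2a2, a small proline-rich protein of the cornified envelope family, had 0 counts in the 4 reference libraries and 38.6, 38.9, 90.6 and 58.4 CPM in the 4 TAM libraries, at least 230-fold and at least 530-fold higher. It overlaps its near-identical copy Sprr2a1 on chromosome 3, and Sprr2a1 and Sprr2a3 were both S-only, so reads of the copies may have been split and these values are uncertain. Among genes that fell to near 0, BC018473 (chromosome 11, 116752167 to 116759373) went from 5.43 and 6.39 CPM to 0 and 0.242 in the S pair and from 14.0 and 14.9 to 0.0819 and 0.281 in the L pair. It is annotated as antisense, and St6galnac1, at 116765025 to 116775507 of the same chromosome, fell in both pairs as well. The library kit does not mark the strand, so reads from overlapping genes on both strands cannot be told apart.

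The sialyltransferase St3gal4 (chromosome 9, 35046579 to 35116810), which adds sialic acid to galactose at the ends of glycan chains, had 824 and 796 CPM in control, 4.70 and 4.35 in TAM short, 201 and 278 in DMBA and 17.1 and 21.9 in TAM long. The log2 fold changes were -7.48 ± 0.24 (adjusted p = 5.04e-06) and -3.62 ± 0.19 (adjusted p = 0.000333), and they differed between the pairs by 3.86 (adjusted p = 0.00107). St6galnac1, which adds sialic acid to mucin-type chains, fell by 4.90 and by 4.63 on the log2 scale, from 9.35 and 8.59 to 0.109 and 0.484 CPM and from 25.4 and 29.9 to 0.655 and 1.59. In a list of 28 sialyltransferases and fucosyltransferases, chosen after the values were seen, 23 were tested. Over all genes tested, 7.20% rose and 8.69% fell in the S pair, and 1.33% rose and 1.63% fell in the L pair. Of the 23, 3 rose and 4 fell in the S pair and 0 rose and 3 fell in the L pair. St3gal4 and St6galnac1 were the 2 same-way members of the list. Without DMBA library 1 the falls in the L pair numbered 8. Others went their own way: St6galnac6 rose from 7.61 and 7.20 to 70.5 and 100 CPM in the S pair and was at 555 to 796 CPM in the L libraries (S-only), and St6galnac4 was opposite-way. Rec8, a cohesin subunit of meiosis, and Rims4, a member of the RIM family of the presynaptic zone, were among the named falls, at -4.57 and -3.14 in the S pair and -3.05 and -2.86 in the L pair. Rims4 lost a call without either TAM long library, and Rec8 lost one in every leave-out but that of DMBA library 2.

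Interferon-induced genes made up 10 of the 96 same-way falls. Of 24 tested, 15 fell and 3 rose in the S pair and 12 fell and 0 rose in the L pair, and the 10 same-way members were Isg15, Oas1a, Oas2, Oas3, Oasl1, Oasl2, Usp18, Stat2, Ifi44 and Bst2. Oasl1 was not called in the L pair with a replicate block (adjusted p = 0.0523) or in either pair with scaling by library size alone (0.0633 and 0.0729), and Oas2 lost a call without TAM long library 1. The median log2 fold change of the 24 was -1.45 in the S pair and -0.96 in the L pair, against -0.05 and -0.01 over all genes tested. Isg15 (chromosome 4, 156199424 to 156200818), a ubiquitin-like protein attached to other proteins after interferon, had 295 and 423 CPM in control, 42.7 and 39.7 in TAM short, 110 and 98.6 in DMBA and 23.4 and 28.6 in TAM long. Its log2 fold change was -3.12 ± 0.19 in the S pair (adjusted p = 7.08e-05) and -2.0 ± 0.19 in the L pair (adjusted p = 0.00288), and the fall in the S pair was the larger (interaction 1.12, adjusted p = 0.0406, or 0.0623 with scaling by library size alone). Ifi44 fell by 2.85 in both pairs, from 157 and 203 to 26.9 and 23 CPM and from 58.7 and 52.8 to 8.93 and 6.45. Oas2, which makes the 2-5A signal that activates RNase L, fell from 54.4 and 99.2 to 5.90 and 6.17 CPM and from 98.2 and 69.1 to 10.5 and 15.3, and Usp18, the protease that removes ISG15, had log2 fold changes of -2.61 and -2.09. Dhx58, the RNA sensor LGP2, had -2.63 and -1.83. The log2 fold changes of the 24 in the 2 pairs are in the plot of the 3 gene lists.

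The group did not move as one. Ifit1, Ifit3, Rsad2 and Ifi27l2b fell in the S pair by 1.85 to 3.07 on the log2 scale and were S-only, with values of -0.20 to -1.05 in the L pair; the interaction of Ifit1 was lost with scaling by library size alone (adjusted p = 0.0663). The 5 called interactions of the list that were higher became 0 without control library 2 or TAM short library 2, 1 without TAM short library 1 or TAM long library 1 and 2 without DMBA library 2. Irf1, Gbp2 and Iigp1, genes that interferon gamma induces, rose in the S pair, at 1.18, 1.82 and 1.52. Not every such gene of the list rose. Irgm1 and Igtp were called in no contrast, and Gbp3 was not called in the S pair and fell in the L pair (log2 fold change -1.22). Ifng itself went from 1 count over both control libraries to 2.51 and 3.27 CPM in TAM short, a ratio of 51.1 (95% counting interval 8.77 to 2060). Its part in the rises was not tested. Zbp1, a sensor of Z-form nucleic acids, was L-only with a log2 fold change of -0.97. The marker genes of T cells moved with these rises, from sums of 213 and 256 CPM in control to 478 and 493 in TAM short; their part in the result was not tested. The Oas and Schlafen families, a list chosen after the values were seen that shares 5 Oas genes with the interferon list, had 16 members tested, of which 13 fell in the S pair and 10 in the L pair, all 10 same-way, of which the shared genes make up 5. Slfn4, a myeloid-expressed Schlafen gene, had 39.7 and 62.8 CPM in control, 21.3 and 23.3 in TAM short, 395 and 446 in DMBA and 98.9 and 95.3 in TAM long. The count of interferon-induced genes lower in the S pair stayed at 12 to 16 with any 1 library left out, whereas that in the L pair was 6 without either TAM short library, 3 without TAM long library 1 and 5 without library 2. The 10 falls of the Oas and Schlafen families in the L pair became 2 without TAM long library 1, 5 without library 2, 4 without either TAM short library and 6 without control library 1.

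Part of the promoters of these genes hold the letters that interferon-activated STAT and IRF factors are known to bind, and short windows of the same-way genes that do are shown. RefSeq promoters of GRCm38.p6, from 250 bases before to 50 after the start, were matched by symbol for 18 of the 24 genes and 72 of the 96 same-way falls. The interferon-stimulated response element, written as GAAA, any 2 bases and GAAA on either strand, was in 12 of the 18, in 5 of the 8 matched promoters of the same-way falls among them, in 15 of the 72 (20.8%), in 6 of 66 same-way rises (9.09%) and in 943 of all 27025 promoters (3.49%). A match of letters is a description and not a binding site. The windows lie wholly before the start, are read 5′ to 3′ along the gene, and have the matched letters in capitals, with overlapping matches joined; the first base of the match lies 78, 75, 20, 130 and 222 bases before the start.
Isg15, chr4:156200871-156200900, minus strand: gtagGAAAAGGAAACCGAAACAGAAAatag
Oas3, chr5:120777715-120777744, minus strand: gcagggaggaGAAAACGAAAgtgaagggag
Oas1a, chr5:120907526-120907555, minus strand: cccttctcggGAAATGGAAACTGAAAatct
Bst2, chr8:71537580-71537609, minus strand: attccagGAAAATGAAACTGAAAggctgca
Stat2, chr10:128270266-128270295, plus strand: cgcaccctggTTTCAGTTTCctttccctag
The other 7 promoters with the element are not printed and include those of Gbp2, which rose in the S pair, and of Irgm1 and Igtp, called in no contrast. In Stat2 the letters stand on the strand opposite to the gene, and in Isg15, Oas1a and Bst2 they repeat in tandem.

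**Figure D2:**
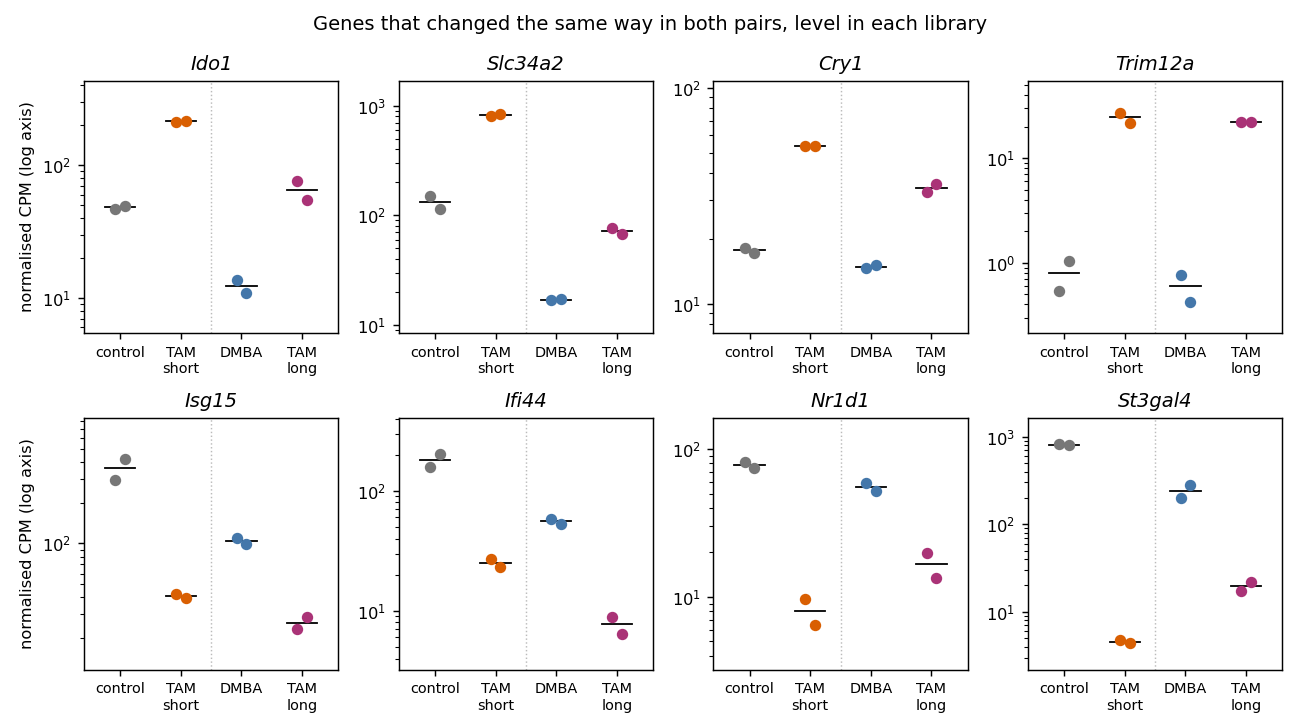
Normalised CPM on a log axis in each library, with 2 points per group and a line at their mean, for 8 same-way genes. In each of the 8 genes TAM short lies on the same side of control as TAM long of DMBA, with no overlap of libraries, as in Ido1 (47.3 and 49.6 against 214 and 216 CPM in the S pair) and Isg15 (295 and 423 against 42.7 and 39.7).

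Some genes of the circadian clock were called in both pairs. Of 19 clock genes and output factors, a list chosen after the values were seen, 4 rose and 7 fell in the S pair and 3 rose and 4 fell in the L pair, and all 7 called in the L pair were same-way. Arntl, the positive arm, went from 19.2 and 20.6 to 42.4 and 41.9 CPM in the S pair and from 17.0 and 19.9 to 30.1 and 40.2 in the L pair. Cry1, a repressor with a late peak, had 18 and 17.2 CPM in control, 53.6 and 53.5 in TAM short, 14.6 and 15 in DMBA and 32.9 and 35.9 in TAM long, with log2 fold changes of 1.60 ± 0.12 (adjusted p = 0.000135) and 1.22 ± 0.12 (adjusted p = 0.00294). In the other direction went Nr1d1, the repressor of Arntl, with 81.6 and 74.4 CPM in control, 9.62 and 6.41 in TAM short, 59.2 and 52.2 in DMBA and 19.7 and 13.5 in TAM long. Its log2 fold changes of -3.27 and -1.74 differed between the pairs (interaction 1.53, adjusted p = 0.0262). Per1 fell by 2.21 and by 1.53, Hlf by 1.34 and by 1.0, and Dbp, from 23.7 and 22.6 to 1.09 and 0.726 CPM and from 31.4 and 19.3 to 5.73 and 3.65, by 4.64 and by 2.43 (interaction 2.21, adjusted p = 0.0389, or 0.0709 with scaling by library size alone). Nfil3, which opposes DBP at its sites, rose in the S pair from 5.76 and 4.06 to 34.8 and 34.0 CPM, and had a log2 fold change of 1.00 in the L pair (adjusted p = 0.053), with a called interaction. Clock and Per2 passed the test in neither pair (log2 fold changes of 0.06 and -0.22 in the S pair and 0.26 and -0.44 in the L pair). The hour at which the cultures were taken is not given in the sources used here. Hlf was at the edge of the threshold in the L pair (adjusted p = 0.049), and DESeq2, the replicate block and 3 other settings did not call it. Dbp lost a call without TAM long library 2, and the number of clock genes lower in the L pair was 2 without that library and 3 to 5 without any other. The 3 interactions of clock genes that were higher, and so those of Nr1d1 and Dbp, became 0 without any library of control or TAM short and 1 without TAM long library 1, and the interaction of Nfil3 was lost without control library 2 or any TAM library. The number higher in the L pair was 2 without either control library, either TAM short library or TAM long library 2, and 5 without DMBA library 2.

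CLOCK and ARNTL are known to bind the E-box, CACGTG. It was in 5 of the 16 clock promoters that matched RefSeq and in 1957 of the 27025 promoters (7.24%), or 1123 of the 11438 of genes tested (9.82%). Windows of the 2 same-way genes that hold it, 60 and 166 bases before the start, are printed because Cry1 rose and Per1 fell with the same letters.
Cry1, chr10:85185097-85185126, minus strand: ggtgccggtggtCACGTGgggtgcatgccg
Per1, chr11:69098771-69098800, plus strand: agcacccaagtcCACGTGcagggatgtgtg
Capitals mark the E-box, which reads the same on both strands.

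Some genes of the matrix fell in both pairs, beside lower sums of fat cell genes. The 9 fat cell genes summed to 124 and 239 CPM in control and 64.7 and 59.6 in TAM short. In the L pair they summed to 319 and 123 in DMBA and 74.1 and 53.6 in TAM long. Of the 8 tested, 1 fell in the S pair and 0 passed in the L pair, where DESeq2 called 1 lower. These counts changed with single libraries left out, and the part of fat cells in the matrix falls was not tested. Among 12 fibroblast genes, 6 fell and 1 rose in the S pair and 4 fell in the L pair, and Col1a1, Col1a2, Col6a1 and Col6a2, chains of fibrillar and beaded collagen, were the same-way members. Col1a1 had 222 and 183 CPM in control, 74.1 and 59.9 in TAM short, 278 and 265 in DMBA and 94.0 and 124 in TAM long, and its log2 fold changes of -1.59 and -1.32 did not differ beyond error (interaction 0.28, adjusted p = 0.528). Of 20 other genes of matrix and basement membrane, chosen after the values were seen, 10 fell and 1 rose in each pair and 8 were same-way, among them Sparc, Fbn1, Hspg2, Tnxb and Col4a1. Sparc, a secreted collagen-binding protein, had log2 fold changes of -1.11 and -1.22. Lama3, a laminin chain of epithelial basement membranes, rose instead, by 0.52 and 0.71; its calls were lost without any library of control, TAM short or TAM long, and that in the S pair by DESeq2 (adjusted p = 0.0691). With scaling by library size alone the matrix genes that fell numbered 7 in the S pair and 3 in the L pair, and Col6a1 and Col6a2 lost their calls in the L pair (adjusted p = 0.059 and 0.0752). Decorin (Dcn), Lum and Pdgfrb, which also mark fibroblasts, passed the test in neither pair, with Dcn at 0.46 and 0.38. The 12 fibroblast genes summed to 1575 and 1437 CPM in control, 899 and 742 in TAM short, 2510 and 2194 in DMBA and 1438 and 1796 in TAM long; in bulk RNA, fewer cells of a type and less RNA per cell cannot be told apart. In the L pair the count of matrix genes that fell was 10, and it was 0 without TAM long library 1, 3 without library 2, 1 without either control library, 2 without either TAM short library and 15 without DMBA library 2. In the S pair it was 2 without control library 1, 5 without control library 2 and 3 without TAM short library 2. The fibroblast count of 4 in the L pair was 0 without TAM long library 1 and 1 without library 2 or any library of the S pair, and that of 6 in the S pair was 2 without TAM short library 2. Among 16 chaperones of the HSP70 and HSP90 families, also chosen after the values were seen, 5 fell and 1 rose in the S pair and 3 fell in the L pair. Hspa1a, Hspa1b and Hspa8 were the same-way members; they fell by 0.95, 0.74 and 0.79 in the S pair and by 1.08, 0.82 and 0.59 in the L pair. The 3 falls in the L pair became 0 without any library of control, TAM short or TAM long, and the 5 in the S pair became 2 and 1 without control library 1 and 2 and 2 and 0 without TAM short library 1 and 2. Hspa1a was not called in the S pair by DESeq2 (adjusted p = 0.0537) or in either pair in the fit on all 10 libraries (0.0573 and 0.0569), nor Hspa8 in the L pair with a replicate block (0.0579). Hspa1a and Hspa1b are near-identical copies whose reads may have been split.

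**Figure D3:**
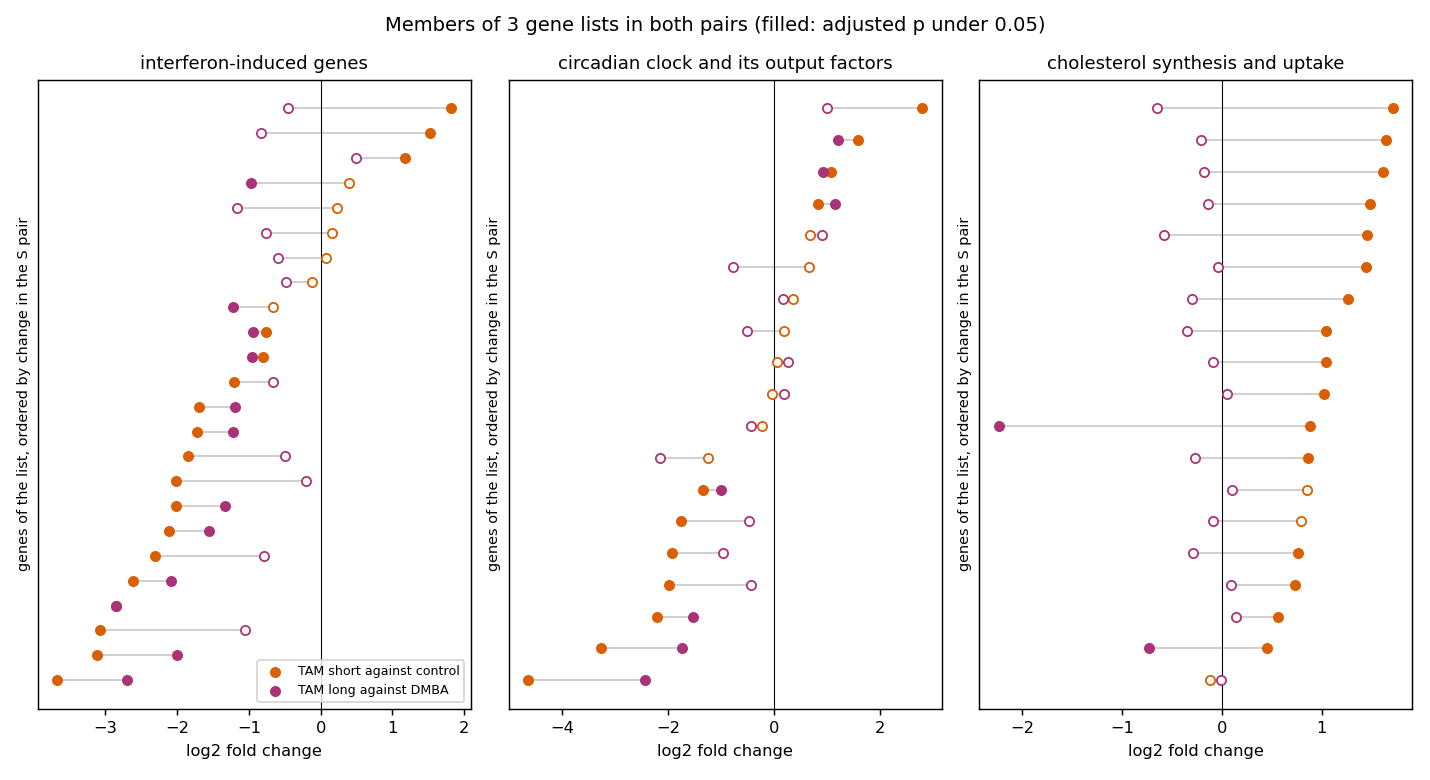
Log2 fold change (x axis) of each tested member of 3 lists (y axis, 1 gene per line, ordered by the change in the S pair) in TAM short against control and TAM long against DMBA, joined by a line, with filled points where the adjusted p is under 0.05. In the interferon list 10 genes and in the clock list 7 have both points filled on the same side of 0, and in the cholesterol list 16 filled points of the S pair lie right of 0 and the 2 filled points of the L pair left of it.

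Cholesterol synthesis and uptake changed in the S pair. Of 19 genes tested, 16 rose and 0 fell in TAM short, against 0 that rose and 2 that fell in TAM long; 12 had a called interaction, all lower, and 10 were S-only. The median log2 fold change was 1.02 in the S pair and -0.18 in the L pair. Hmgcs1 (chromosome 13, 119690462 to 119708086), which makes HMG-CoA, had 302 and 306 CPM in control, 816 and 882 in TAM short, 290 and 493 in DMBA and 288 and 423 in TAM long. The S groups did not overlap and the L groups did, with log2 fold changes of 1.48 (adjusted p = 0.00712) and -0.14 (adjusted p = 0.797). Sqle, which makes the first oxygenated sterol precursor, rose from 128 and 118 to 371 and 396 CPM, with a log2 fold change of 1.64, against -0.21 in the L pair. The 2 that fell in the L pair were opposite-way, among them Mvk, the mevalonate kinase, at 0.45 and -0.73; its call in the S pair was lost by DESeq2 (adjusted p = 0.139) and without the filter on low counts (0.0694). The count of 16 was 7 without either control library, 9 and 6 without TAM short library 1 and 2, and 14 to 18 without any other. The 12 called interactions became 6 and 3 without control library 1 and 2, 7 and 2 without TAM short library 1 and 2, and 7 without TAM long library 1. The 2 falls in the L pair became 1 without any library of control or TAM short, 0 without either TAM long library and 4 without DMBA library 1. The sterol regulatory element TCACNCCAC, searched on both strands, was in 1 of 11 list promoters that matched RefSeq and in 330 of the 27025 (1.22%); the match, in Hmgcs1, starts 137 bases before the start and is in capitals.
Hmgcs1, chr13:119690203-119690232, plus strand: acgtcaccgtcTCACCCCACttcccaggtc

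Genes of nutrient absorption fell in the S pair, beside a change of segment markers. Of 16 enterocyte genes, 10 fell and 0 rose in TAM short, with a median log2 fold change of -1.48, and 7 had a called interaction, all higher. Fabp1, the liver-type fatty acid binding protein, went from 1530 and 2655 to 5.03 and 2.06 CPM, and Lct, lactase, from 1230 and 1499 to 2.95 and 0.847. Slc5a1, the sodium-glucose transporter, fell from 3682 and 4191 to 1259 and 1202. Fabp1 was at 0 to 2.62 CPM and Lct at 0 to 0.256 in the L libraries, levels from which a fall could not be measured, so the called interaction of Fabp1, 1 of the 7, does not compare 2 measured changes. The 16 enterocyte genes together summed to 712 to 1287 CPM in the L libraries, against 23778 to 64652 in the S libraries. Over all S-only genes, 11 had a mean under 1 CPM in both L groups. Named S-only falls included Slc2a5, the fructose transporter, with 170 and 222 CPM in control and 10.9 and 12 in TAM short, Slc23a1, a vitamin C transporter, with 136 and 139 against 1.75 and 0.605, and Aadac, an esterase of the endoplasmic reticulum, with 126 and 157 against 3.39 and 1.33. In Aadac the L libraries were at 18.1 to 30.5 CPM and the interaction was 6.37 (adjusted p = 0.000845). The other named falls were the adenosine receptor Adora2b, Efr3b and Gstm3, at -4.55, -4.52 and -4.21. Of 10 genes of the small intestine, 2 rose and 6 fell in the S pair. Of 10 genes of bile acid transport and sensing, 5 rose and 2 fell there. In the L pair 0 of either list passed, while DESeq2 called 2 bile acid genes higher there. Calls in the L pair also appeared in both lists without DMBA library 1 and in the bile acid list without TAM long library 2. Genes known from the ileum were among the rises in the S pair. Fabp6, the bile acid binding protein, went from 2.72 and 0.232 CPM in control to 7593 and 8593 in TAM short, Slc10a2, the ileal bile acid transporter, from 5.65 and 3.25 to 225 and 320, and Fgf15, the hormone that ileal enterocytes release on bile acids, from 0 counts to 20.6 and 50.2 CPM, at least 206-fold higher. Gata4, a factor of the upper small intestine, fell from 131 and 147 to 35.8 and 13.1 CPM. DESeq2 called neither Gata4 nor Fgf15 (adjusted p = 0.176 and 0.126). The 5 bile acid genes that rose became 3 without TAM short library 1, 2 without library 2 or either control library and 3 by DESeq2, and the 2 that fell became 0 without any of these 4 libraries. The 2 small intestine genes that rose became 1 without any of them, and the 6 that fell became 3 without control library 2 and 2 without TAM short library 2. Segment markers thus moved with the S pair, and their part in the other changes of that pair was not tested. The count of 10 enterocyte genes that fell was 6 without control library 2 or TAM short library 2, and the 7 interactions became 3 and 2 without control library 1 and 2, 2 and 1 without TAM short library 1 and 2, and 1 without TAM long library 1.

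S-only rises included genes of mucosal defence. Of 14 antimicrobial and acute phase genes, 6 rose and 0 fell in the S pair and Ido1 rose in the L pair. DESeq2 called 2 of the list higher and 1 lower in the L pair. Without either DMBA library, more of the list passed there, in both directions. Saa1, serum amyloid A, went from 1.09 and 1.05 CPM to 145 and 256 (log2 fold change 7.54, adjusted p = 0.000125), and in the L pair it had 249 and 531 in DMBA and 856 and 985 in TAM long (1.24, adjusted p = 0.0978). Nos2, the inducible nitric oxide synthase, went from 33.6 and 25.2 to 416 and 493 CPM, and Duox2 and Duoxa2, which make hydrogen peroxide at the surface, had log2 fold changes of 2.60 and 3.92. In the L pair the values of these 3 were 1.29, 0.70 and 0.90, of the same sign and not past the test, while the interaction passed for each (that of Duox2 not with a replicate block, adjusted p = 0.0559). The 6 rises stayed at 5 to 7 with any 1 library left out, but the 4 called interactions of the list, on which S-only rests, became 2 without control library 1 and 1 without control library 2 or any TAM library. Among 13 genes of T cells tested, 6 rose in the S pair and 0 passed in the L pair. Calls in the L pair appeared without DMBA library 1 or TAM long library 2. Cd4, Lck, Cd5 and Cd2 were S-only, with Cd5 at 0.761 and 0.929 CPM in control and 9.40 and 12.6 in TAM short. Cd3d, Cd3e and Cd3g, which all T cells carry, were at log2 fold changes of 0.34, 0.88 and 0.50 that did not pass. The 6 were 3 without either control library or TAM short library 2 and 4 without TAM short library 1, and the 4 called interactions became 1 without either control library, 2 without TAM short library 1 or either TAM long library and 0 without TAM short library 2. Of 12 macrophage genes, 4 rose and 0 fell in the S pair, a count that fell without any library of control, TAM short or TAM long. They summed to 225 and 280 CPM in control and 426 and 381 in TAM short, and their part in the other rises was not tested. Of 11 MHC class II genes, 5 rose in the S pair, Ciita, the master regulator of the class, among them. In the main fit 0 had a called interaction (median log2 fold change 1.25 in the S pair and 0.45 in the L pair). Interactions of this list were called by DESeq2 (2, both lower) and without either DMBA library or TAM long library 1. The 5 became 0 without either control library, 1 without either TAM short library and 10 without either DMBA library.

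The S-only rises named by the rule were Krt17, Hoxb9, Suox, Card9, AA467197 and Fut2. Suox, sulfite oxidase, had 15.6 and 15.4 CPM in control and 605 and 744 in TAM short, against 20.2 to 31.9 in the L libraries; its log2 fold change was 5.44 ± 0.21 (adjusted p = 1.1e-05) and the interaction -5.16 (adjusted p = 0.000489). Card9, an adaptor of antifungal signalling, went from 1.85 and 0.929 to 37.6 and 46.8 CPM and was at 0.769 to 1.39 in the L libraries. Fut2, the fucosyltransferase of mucosal blood group antigens, went from 3.91 and 1.28 to 30.1 and 33.9 CPM and was at 194 to 267 in the L libraries. Hoxb9, a homeobox gene of posterior identity, had 2 counts over both control libraries and 11 and 21.4 CPM in TAM short, a ratio of 142 (95% counting interval 39 to 1180), and 31.8 to 63.7 CPM in the L libraries. AA467197 rose by 3.75, and its level of 97.5 to 162 CPM in the L libraries was also the higher one. Krt17, a keratin of stressed epithelium, had 0 counts in control and 1.75 and 1.09 CPM in TAM short, at least 8.52-fold higher. It met the rule of a mean of at least 5 CPM only through the L libraries, where its mean level was above that in TAM short. Krt17 lost its call in 6 of the 8 leave-outs, and its interaction was not called with a replicate block (adjusted p = 0.0628). The 6 were those of every control, TAM short and TAM long library. Hoxb9 lost one without control library 2, and Slc2a5 of the falls without TAM short library 2 or TAM long library 1.

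L-only changes were fewer. Xpnpep2, an aminopeptidase of the brush border that cleaves before proline, had 422 and 262 CPM in control, 463 and 497 in TAM short, 3.85 and 2.78 in DMBA and 48.0 and 35.8 in TAM long. Its log2 fold change was 3.64 ± 0.29 in the L pair (adjusted p = 0.00125) and 0.49 ± 0.23 in the S pair (adjusted p = 0.193), and of the 12 named L-only genes it was the one that kept its calls whichever library was left out. Apob, the protein of chylomicrons, rose from 23.2 and 9.29 to 135 and 83.5 CPM in the L pair and was at 3269 to 3905 in the S libraries. The other named rises were Ces2e, a carboxylesterase, at 1.51, Ugt1a7c, a glucuronosyltransferase, at 1.65, Sult1d1, a sulfotransferase, at 1.35, and Plscr4, a phospholipid scramblase, at 1.56. With scaling by library size alone Ces2e, Ugt1a7c and Plscr4 lost their calls (adjusted p = 0.0738, 0.055 and 0.0533 in the L pair). In a list of cytochrome P450 genes and esterases, 14 were tested, 5 fell in the S pair and 3 rose in the L pair, Ces2a, Ces2c and Ces2e. Ces2a had 83.6 and 33.3 CPM in DMBA and 532 and 280 in TAM long. The 3 that rose became 0 without any library of control or TAM short or without TAM long library 1, and 7 without DMBA library 1. The 5 that fell became 3 without control library 2 or either TAM short library, and 9 and 8 without DMBA library 1 and 2.

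Among L-only falls, 4 gasdermin C genes that lie together on chromosome 15 fell in TAM long; the family was singled out after the values were seen. Gasdermins form pores in membranes once cleaved. Gsdmc2 had 1270 and 2468 CPM in DMBA and 426 and 517 in TAM long, and Gsdmc4 1528 and 3258 against 444 and 560; in the S libraries they were at 57.6 to 105 CPM. Gsdmc3 and Gsdmcl2 had log2 fold changes of -1.81 and -2.60. In the S pair 0 of the 4 passed, while DESeq2 and scaling by library size alone each called 1 higher. Without either DMBA library, some of the family were called higher in the S pair as well, so L-only then did not hold for all 4. These genes resemble each other closely, so the split of reads between them is uncertain, and DMBA library 2, the one with pancreatic genes, had the higher level of each. Without that library all 4 still passed, as without DMBA library 1, while 2 passed without control library 2 and 0 without control library 1 or any TAM library. Fasn, fatty acid synthase, went from 213 and 212 CPM to 102 and 91.6 (log2 fold change -1.13, adjusted p = 0.00722), and had 0.46 in the S pair (adjusted p = 0.0546). Gpx2, a glutathione peroxidase of gut epithelium, the forkhead factor Foxa3 and the co-chaperone Bag1 had -1.09, -1.0 and -0.88. The 6 named L-only falls all kept their calls without either DMBA library, and 0 of 6 did without TAM long library 1 or 2, 1 without TAM short library 1 or 2 and 2 without control library 1 or 2. Of the 6 rises, 6 and 3 kept theirs without DMBA library 1 and 2, 2 without TAM long library 2 and 1 without any of the other 5 libraries.

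Opposite-way genes numbered 30, with 19 higher in the S pair and lower in the L pair and 11 the other way. Pla2g4c, a cytosolic phospholipase A2, had 5.87 and 4.76 CPM in control, 25.6 and 34.6 in TAM short, 215 and 565 in DMBA and 8.11 and 8.14 in TAM long, with log2 fold changes of 2.49 ± 0.46 and -5.58 ± 0.46 and an interaction of -8.08 (adjusted p = 0.00144). Wars, the tryptophanyl-tRNA synthetase, went from 82.7 and 67.0 to 164 and 176 CPM in the S pair and from 151 and 181 to 87.7 and 92.1 in the L pair, so that TAM short lay near DMBA and TAM long near control. Batf2, a transcription factor, St6galnac4 and Cd177, a surface glycoprotein known from neutrophils, had 0.96, 1.87 and 1.47 in the S pair and -1.20, -1.24 and -0.83 in the L pair. In the other direction, Chga, chromogranin A of enteroendocrine granules, had 63.5 and 49.1 CPM in control, 27.7 and 21.5 in TAM short, 13.8 and 13.6 in DMBA and 37.4 and 25.4 in TAM long (log2 fold changes -1.19 and 1.20, interaction 2.39, adjusted p = 0.00646). Of 13 enteroendocrine genes tested, 3 rose and 2 fell in the S pair and 3 rose in the L pair. The 3 in the L pair became 7 without DMBA library 1, 1 without either control library and 0 without either TAM short library or TAM long library 1. In the S pair the rises became 5 without either DMBA library, and the falls 1 without control library 2 and 0 without control library 1 or TAM short library 2. Chgb, another granin, was L-only with 1.31, and Gip, an incretin, fell in the S pair by 1.21, while Gcg, proglucagon, rose in both pairs (1.39 and 1.08; not called in the L pair with scaling by library size alone, adjusted p = 0.0678), and Pyy, peptide YY, was S-only with 2.97. Sgpl1, which degrades sphingosine 1-phosphate, fell from 865 and 885 to 326 and 266 CPM and rose from 106 and 101 to 159 and 167. Oat, ornithine aminotransferase, Sult1b1, Ermp1 and Mgst2 had -0.80, -1.19, -0.54 and -0.53 in the S pair and 0.67, 0.74, 1.05 and 0.63 in the L pair. With scaling by library size alone Oat and Sgpl1 were not called in the L pair (adjusted p = 0.0509 and 0.055), Ermp1 not in the S pair (0.0918) and Mgst2 in neither (0.0944 and 0.0774). Mgst2 was also not called in the fit on all 10 libraries (0.249 and 0.248), nor Sult1b1 in the L pair with a replicate block (0.0519). None of the 12 chosen by the rule for naming kept its 3 calls in all 8 leave-outs. Of the 6 with a rise in the S pair, 6 kept them without either DMBA library, 3 without either control library, 1 without TAM short library 1 or either TAM long library and 0 without TAM short library 2. Of the 6 with a fall, 5 and 3 kept them without DMBA library 1 and 2, 2 without TAM long library 2 and 0 without any of the others.

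**Figure D4:**
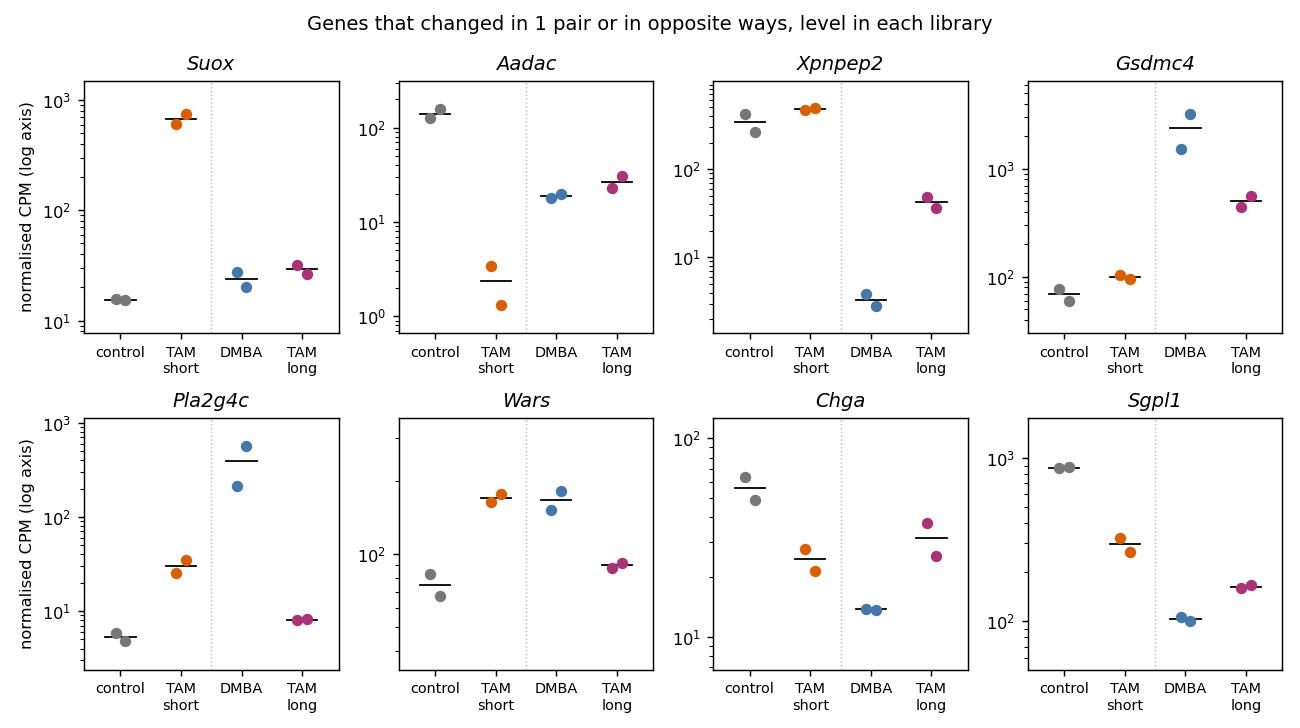
Normalised CPM on a log axis in each library, with 2 points per group and a line at their mean, for 2 S-only genes (Suox, Aadac), 2 L-only genes (Xpnpep2, Gsdmc4) and 4 opposite-way genes. Suox stands at 605 and 744 CPM in TAM short and 15.4 to 31.9 elsewhere, and Wars is high in TAM short and DMBA and low in control and TAM long.

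Protein phosphatase 2A is the enzyme whose scaffold the floxed gene encodes. Of 19 of its subunits and regulators tested, 1 rose and 1 fell in the S pair, where 15.9% of all genes passed, and 0 passed in the L pair, where 2.96% did. Ppp2cb, a catalytic subunit, had 66.8 and 61.3 CPM in control, 101 and 90.1 in TAM short, 66.5 and 95.1 in DMBA and 79.7 and 76.1 in TAM long (0.58 in the S pair, adjusted p = 0.0489). Lcmt1, which methylates the catalytic subunit, was S-only, with 52.5 and 61.2 CPM against 32.9 and 32.5. Ppp2r1b, the other scaffold, had log2 fold changes of 0.35 (adjusted p = 0.186) and -0.06 (adjusted p = 0.87). The rise was lost without any library of control, TAM short or TAM long and in the fits with a replicate block and on all 10 libraries (adjusted p = 0.059 and 0.0553). The fall of Lcmt1 was lost without TAM short library 2 and its interaction without any library of control, TAM short or TAM long, and 3 rose and 2 fell without either DMBA library.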

How the data were processed

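The authors prepared poly(A) libraries of organoid RNA with an unstranded kit (NEBNext Ultra), aligned reads with TopHat and counted them per gene with HTSeq. The submitters' processing notes give the build as GRCm38.p6, and the annotation release and the strand setting of the counter are not given in the sources used here. The deposited table holds raw read counts per gene, which were used, and FPKM values, authors' group means of read counts (12 columns), fold changes and p-values, which were not. Of 47074 lines, 5 without a gene ID were left out. Symbols and positions came from GENCODE M21 (98.77% of genes) and promoters from RefSeq.

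Counts of the 8 libraries were filtered with filterByExpr, scaled by TMM and fitted with 4 group means by edgeR 4.0.16 (glmQLFit and glmQLFTest, R 4.3.3, 4 residual degrees of freedom). P-values were two-sided and adjusted by Benjamini and Hochberg over 15396 genes with a threshold of 0.05; ± is a standard error. An exact permutation test of 2 against 2 libraries cannot go below 0.333. Intervals (95%, exact) and floors (3 counts over a group) cover counting error only. Alternatives were DESeq2 1.42.0, other scalings, no filter, all 10 libraries, a replicate block, a fold threshold and leaving out each library.

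Genes named were protein-coding genes with a mean of at least 5 CPM whose libraries did not overlap in the called pairs: the 10 rises and 10 falls (same-way) or 6 of each orientation (opposite-way) with the largest smaller change of the 2 pairs, and the 6 rises and 6 falls with the largest interaction and a log2 fold change under 0.5 in the uncalled pair (S-only, L-only). A few genes are not reported here by name and remain in counts and medians. Ppp2r1a, Lgr5 and examples of lists were added. The members and lists were chosen with earlier results of these data known. The libraries labelled DMBA with TAM were not analysed here beyond the fit on all 10.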

Additional observations from a re-analysis of the deposited data

Results flagged for a closer look

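The change in the L pair differed from that in the S pair by a test of the interaction for 1023 genes, and the named genes among them are given here with the interaction, the log2 fold change in the L pair minus that in the S pair. Among same-way genes it was -1.86 for Slc15a2, -6.21 for Tat, 3.86 for St3gal4, 2.21 for Dbp and 1.12 for Isg15. Among opposite-way genes that rose in the S pair it was -8.08 for Pla2g4c, -3.11 for St6galnac4, -2.16 for Batf2, -2.07 for Wars and -2.30 for Cd177. For those that fell in the S pair it was 2.39 for Chga, 1.93 for Sult1b1, 1.47 for Oat, 2.21 for Sgpl1, 1.60 for Ermp1 and 1.16 for Mgst2.

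Among S-only rises it was -7.04 for Krt17, -6.67 for Hoxb9, -5.16 for Suox, -5.03 for Card9, -4.12 for AA467197 and -3.95 for Fut2. Among S-only falls it was 6.81 for Slc23a1, 6.37 for Aadac, 4.87 for Adora2b, 4.54 for Efr3b, 4.48 for Slc2a5 and 3.95 for Gstm3. The fitted values of Tat, Krt17 and Hoxb9 depend on the prior count, since control held 0 to 3 counts of each.

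Among L-only rises it was 3.15 for Xpnpep2, 2.81 for Apob, 2.01 for Plscr4, 1.89 for Ces2e, 1.86 for Ugt1a7c and 1.80 for Sult1d1. Among L-only falls it was -2.27 for Gsdmc2, -1.59 for Fasn, -1.49 for Gpx2, -1.37 for Zbp1, -1.32 for Foxa3 and -1.29 for Bag1. The L pair had DMBA and the S pair saline as its reference, so reference, short or long and the segment markers cannot be told apart in these differences.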

How the results depend on the processing

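With any 1 library left out, the genes called numbered 629 to 3496 in the S pair, 51 to 1286 in the L pair and 125 to 1941 for the interaction, and the classes held 38 to 353 same-way, 0 to 225 opposite-way, 107 to 1099 S-only and 7 to 367 L-only genes; fewer libraries are behind each fit, and a lone library is assumed to vary like the other groups. The counts rose without DMBA library 1 (3496, 1286 and 1941) and library 2 (3440, 610 and 1283). DESeq2 gave 689 genes in the L pair, 70 opposite-way and 138 L-only genes. Without the filter on low counts (26004 genes) the L pair had 1899 calls and the interaction 2313, with 622 same-way, 314 opposite-way, 1277 S-only and 370 L-only genes. Asking also for a 2-fold change left 1179 genes in the S pair, 213 in the L pair, 83 same-way, 3 opposite-way, 461 S-only and 46 L-only. The cause of the moves by DESeq2 and without the filter was not tested. Scaling by library size alone gave 58.4% of calls higher in the S pair, against 45.3%, and 40.6% in the interaction, against 52%, and moved the median S log2 fold change from -0.05 to 0.04. Without TAM long library 2, 72 genes were higher and 37 lower in the L pair. Of 7280 values of 520 called contrasts of described genes under 14 settings, the 2-fold threshold not among them, 5529 were called in the same direction, 1751 kept the direction and were not called, and 0 reversed.

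Replicate numbers are shared by all groups, and nothing says that a number marks a shared culture or day. Across genes, the deviations of libraries with the same number correlated with 0.266 between DMBA and TAM long, 0.035 between control and TAM short and -0.038 to 0.098 between the other groups; with 2 libraries a group this does not settle whether the numbers pair them, and they were treated as sharing a number only. With a replicate block 2377 genes were called in the S pair, 462 in the L pair and 983 for the interaction, with 183 same-way, 34 opposite-way, 743 S-only and 82 L-only genes. With 8828247 to 10923673 counts per library, genes near 3 counts per group give bounds or wide intervals only.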

Other observations

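Immediate early genes, the transcription factors that cells make within minutes of a stimulus, went in different directions. Of 13 tested, 3 rose and 3 fell in the S pair and 3 rose in the L pair. Jun was same-way, with 42.7 and 58.5 CPM in control, 82.4 and 82.6 in TAM short, 92.3 and 84.2 in DMBA and 154 and 145 in TAM long, and so was Egr1, at log2 fold changes of 0.69 and 1.63. Fos and Fosb were S-only falls, at -1.44 and -2.87, against 0.45 and 0.52 in the L pair; the 2 interactions of the list that were higher became 0 without either TAM short library and 1 without control library 2. Without either TAM short library or control library 1, 0 of the 13 rose in the S pair; 1 did without control library 2 and 5 and 6 without DMBA library 1 and 2. The 3 that rose in the L pair became 1 without any TAM short or TAM long library and with scaling by library size alone, where Jun was not called in that pair (adjusted p = 0.0509).

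Some genes of goblet cells rose in TAM short. Retnlb, a goblet cell product that acts on bacteria, had 165 and 129 CPM in control and 1243 and 1172 in TAM short, and 4500 to 8294 in the L libraries. Muc2, the main gel-forming mucin, had 1321 and 1072 against 2110 and 2632. Of 14 goblet cell genes, 3 rose in the S pair and 0 passed in the L pair, and the 3 became 8 without either DMBA library, 1 without either TAM short library or control library 2 and 2 without control library 1 or either TAM long library. Among 11 Paneth cell genes, 0 passed in the S pair and Itln1 and Pla2g2a fell in the L pair by 2.42 and by 2.50 on the log2 scale; DMBA library 2 held the higher level of both (188 and 561 CPM), and the 2 calls became 6 without DMBA library 1, 1 without TAM long library 2 and 0 without TAM long library 1 or any library of control or TAM short. The counts of 0 in the goblet and Paneth lists did not hold in every fit. Some goblet cell genes fell in the L pair without DMBA library 1, and calls in both directions appeared there without library 2. Some Paneth cell genes fell in the S pair without either DMBA library. DESeq2 called 2 goblet cell genes lower in the L pair and 1 Paneth cell gene lower in the S pair. The 18 ribosomal protein genes tested had median log2 fold changes of -0.17 and 0.01 in the S and L pairs. Those of the 12 smooth muscle genes were -0.32 and 0.18.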
